A study of Sus scrofa with 30 samples.

Results

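The transcripts described here are those of the pig mitochondrial genome in the sow mammary gland. They were chosen by identifier alone, as every row of the deposited expression table whose name begins with KEF22_, the locus tag of the mitochondrial genes. The rule found 34 of the 61773 transcripts in the table: all 13 annotated mRNAs, both ribosomal RNAs and 19 of the 22 annotated tRNAs. The tRNA genes KEF22_t01, KEF22_t05 and KEF22_t11 had no row. Of the 34 members, 33 had a value above 0 in each of the samples counted below, and KEF22_t02 was at 0 in PL sample 2 alone.

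The small circular genome of the mitochondrion encodes core subunits of the respiratory chain, together with the rRNAs and tRNAs that mitochondria need to translate them. Both strands are transcribed into long precursors that are cut at the tRNAs lying between the coding genes, and the mRNAs then receive a short poly(A) tail. All other subunits of the chain, and the polymerase and processing enzymes, are encoded in the nucleus, and the secretory epithelium of a lactating gland is known for a high demand for ATP.

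Mammary parenchyma came from related multiparous hybrid sows (Danish Landrace × Yorkshire), 6 per stage, and was cut after slaughter from 1 gland on the left side. MG stands for gestation day 70 and LG for gestation day 110, EL for day 2 and PL for day 10 after farrowing, and W2 for 2 days from weaning. The labels name no treatment or engineered allele. Each library is whole parenchyma, so a change in cell make-up cannot be told apart from a change in RNA per cell. Groups followed the sample titles. In the sample records, 12 samples carry a stage name that goes against their title, since those titled EL are named as mid gestation and those titled MG as early lactation. If the records' stage names were the right ones, the MG and EL values would change places. The paper reports a sharp rise of casein genes in EL. In the counted samples titled EL, the milk protein genes other than PAEP (beta-lactoglobulin) held 6.40% to 12.1% of the summed values. In those titled MG they held 1.19% to 2.95%.

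Values are called units here, meaning abundances corrected for transcript length that sum to a fixed total (TPM), because each sample summed to between 997480 and 998888. In each stage 3 of the 6 samples were nearly identical and matched the mean of the other 3, so n = 3 was counted per stage, 15 samples in all. Among the near-identical samples the median relative difference over transcripts was at most 1.85%, whereas it was at least 19.6% between the counted ones. PL sample 2 stood apart among the counted samples, with 40.8% of its units in 7 milk protein genes (caseins, lactalbumin, whey acidic protein and beta-lactoglobulin) against 10.5% to 25.5% in the other 14. The 6 luminal epithelial markers summed to 791 to 2107 units per sample, although 1 of them, KRT7, was at 0 in all EL samples, while the only skeletal muscle marker found of 6 stayed at or below 1.71 units.

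Mitochondrial transcripts held a similar share of all units at every stage, and the stages overlapped at PL. The share was 9.46% ± 0.213 (SD, n = 3) at MG, 10.1% ± 0.0636 at LG, 9.16% ± 0.175 at EL, 8.94% ± 1.39 at PL and 9.95% ± 0.0532 at W2. The PL samples spread from 7.40% in sample 2 over 9.33% in sample 3 to 10.1% in sample 6, and so overlapped every other stage. The mRNAs made up most of the share, with 8.35% of all units at MG, 8.87% at LG, 8.12% at EL, 7.67% at PL and 8.84% at W2. The tRNAs held 1.02% to 1.23% of all units as stage means and the rRNAs 0.0196% to 0.0417%.

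The units of a sample are shares of a fixed total, so the level of the mitochondrial RNAs was set beside that of other transcripts. The 7 milk protein genes held 14.0% ± 2.57 of all units at MG, 18.1% ± 2.26 at LG, 23.6% ± 3.12 at EL, 29.4% ± 9.88 at PL and 11.9% ± 1.78 at W2. Without PAEP (beta-lactoglobulin) the others held 1.96% ± 0.900, 4.44% ± 1.33, 9.65% ± 2.93, 17.2% ± 10.1 and 0.732% ± 0.133 in the same order. Of the units outside all 7 genes, the mitochondrial transcripts held 11.0% ± 0.198 at MG, 12.3% ± 0.362 at LG, 12.0% ± 0.282 at EL, 12.7% ± 0.334 at PL and 11.3% ± 0.258 at W2. A median-ratio factor for each sample was also taken from the 2698 transcripts with at least 10 units in all 15 samples. After division by this factor the share was 8.07% ± 0.282 at MG, 9.63% ± 0.433 at LG, 9.80% ± 0.823 at EL, 12.1% ± 0.981 at PL and 8.13% ± 0.426 at W2. On this scale the PL samples, at 13.1%, 11.1% and 12.0%, lay above all 12 samples of the other stages, the highest of which was EL sample 4 at 10.7%.

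The nuclear-encoded subunits gave a further yardstick. Of 76 such genes listed, 64 were found in the table, and the ratio of the 13 mitochondrial mRNAs in sum to these genes in sum does not depend on how a sample is scaled. The ratio was 8.50 ± 0.162 (SD, n = 3) at MG, 10.3 ± 0.796 at LG, 10.1 ± 0.689 at EL, 14.0 ± 1.32 at PL and 9.10 ± 0.484 at W2. The PL samples, at 13.2, 13.2 and 15.5, lay above all others, the next highest being LG sample 3 at 11.2. No test was made of the share or the ratio, since with 3 samples against 3 an exact two-sided permutation test cannot fall below p = 0.1.

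**Figure D1:**
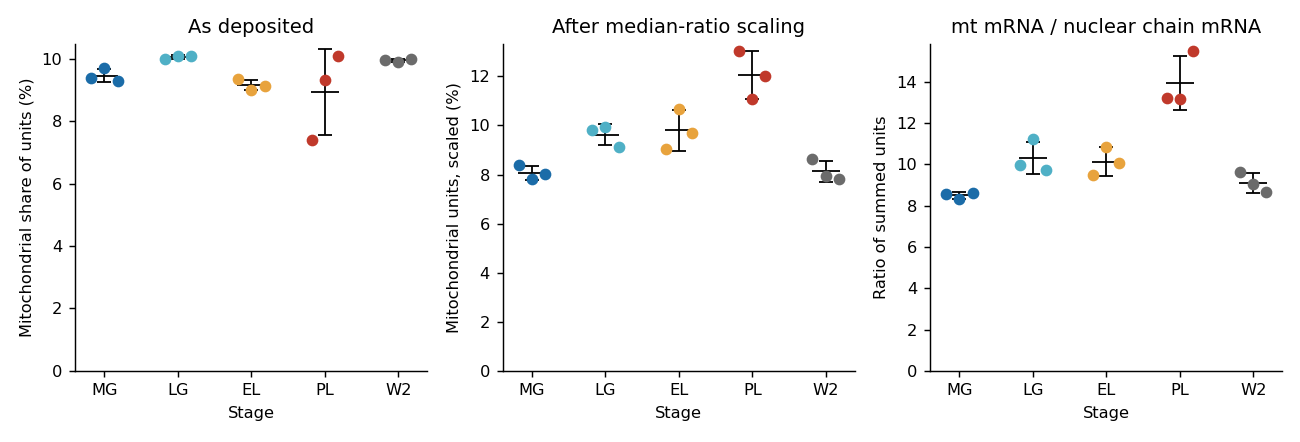
Each point is 1 of the 15 counted samples, by stage, with the mean (dash) and SD (bars, n = 3). The left panel gives the mitochondrial share of all units in percent, the middle panel the same after division by the sample's median-ratio factor, and the right panel the summed units of the 13 mitochondrial mRNAs over those of 64 nuclear respiratory chain genes. The PL samples overlap the other stages on the left (7.40% to 10.1%) and lie above all of them in the middle (11.1% to 13.1%) and on the right (13.2 to 15.5).

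Within the mitochondrial mRNAs, the deposited levels per length spanned several orders of magnitude. COX1, which encodes the catalytic core of cytochrome c oxidase (complex IV), had the highest mean over the 15 samples, 14312 units, and ranked 4 among all transcripts in the table. ATP8, a subunit of ATP synthase (complex V), followed with 13572, and the other complex IV subunits COX2 and COX3 with 12725 and 12550. These 4 means were close to each other, and the ranges of the 4 genes over the samples overlapped. CYTB, the mitochondrial subunit of complex III, averaged 6256 units. The complex I subunits came below it, with ND2 at 5216, ND4L at 4235, ND1 at 3504, ND3 at 3404 and ND5 at 3039, and ATP6 of complex V lay among them at 4684. ND5 was the steadiest member, with a coefficient of variation of 5.55% over the 15 samples.

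The remaining complex I subunits had far lower deposited values. ND6 averaged 21.9 units, with 13.6 as the lowest and 54.1 as the highest sample value. ND4 lay between 0.50 and 0.87 units in 13 of the 15 samples but at 239 in EL sample 4 and 243 in W2 sample 3. Its neighbour ND4L, which overlaps it by 7 bases and is known to share an mRNA with it, had 3500 units in EL sample 4 and 4723 in W2 sample 3, inside its range over the other samples (3011 to 4934). The ratio of ND4 to ND4L was 0.0682 in EL sample 4, 0.0514 in W2 sample 3 and at most 0.000288 in the other samples. The ND4 values may thus not measure the abundance of the shared mRNA, and the reason for the gap was not tested. In Sscrofa11.1 ND4L lies at positions 11069 to 11365 of chromosome MT and ND4 at 11359 to 12736. ATP8 (8959 to 9162) and ATP6 (9120 to 9800) overlap by 43 bases and are likewise known to share an mRNA, and the ratio of ATP6 to ATP8 was 0.361 ± 0.0286 at MG and 0.318 ± 0.157 at EL, where ATP6 was at 6121 units in sample 3, 2363 in sample 4 and 4143 in sample 6. The library kit keeps no strand information, so reads over ND6, which is encoded on the opposite strand to most of the others and overlaps ND5 by 17 bases, cannot be told apart there.

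**Figure D2:**
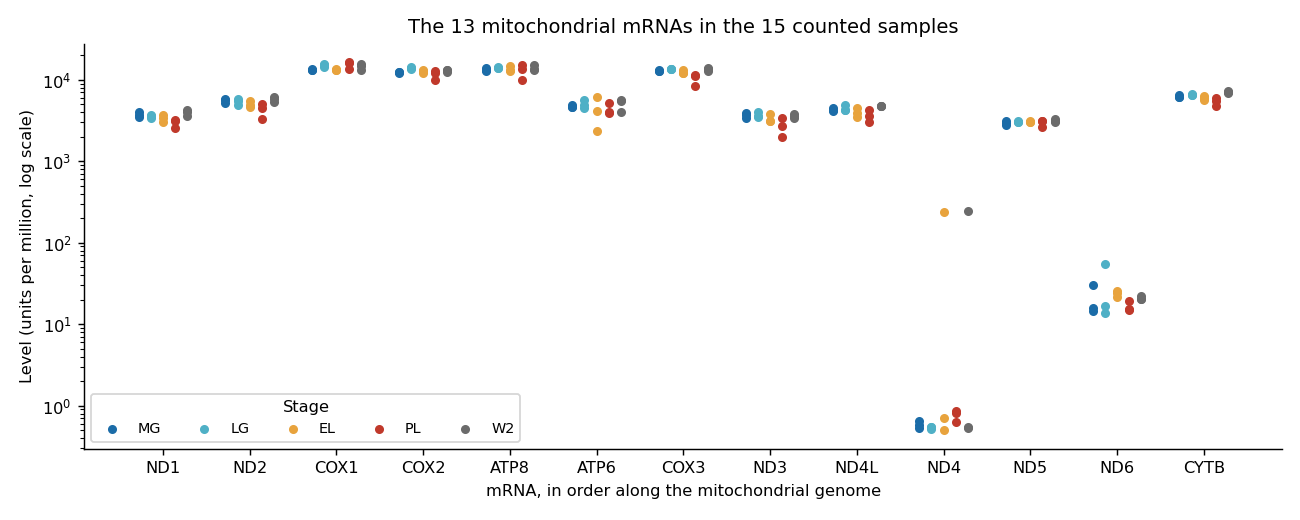
Each point is the level of 1 mRNA in 1 of the 15 counted samples in units on a log axis, in order along the mitochondrial genome and coloured by stage. The other 11 mRNAs lie between 1970 and 16364 units in every sample, while ND6 lies between 13.6 and 54.1 and ND4 below 1 unit except in EL sample 4 and W2 sample 3.

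The rRNAs, known as the most abundant RNAs of mitochondria, were low in these libraries, whose kit selects for poly(A) RNA, at 182 units for the large rRNA (KEF22_r01, 2274 to 3844) and 111 for the small rRNA (KEF22_r02, 1246 to 2205). The large rRNA was at 185, 121 and 164 units at MG, 154, 191 and 154 at LG, 101, 140 and 99.4 at EL, 57.4, 193 and 567 at PL and 262, 136 and 202 at W2. Thus PL held both the lowest and the highest sample. The small rRNA followed the same order at PL, with 51.0, 132 and 248 units in samples 2, 3 and 6.

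Among the tRNA genes, KEF22_t12 stood far above the rest with a mean of 8489 units, rank 11 among all transcripts of the table. It lies at 8059 to 8129, 3 bases after the end of COX1 (6511 to 8055). KEF22_t20, between ND6 and CYTB at 15267 to 15335, averaged 1309 units, KEF22_t14, between COX2 and ATP8 at 8891 to 8957, 441 units, and KEF22_t10, at 6379 to 6444 upstream of COX1, 399 units. The other 15 tRNAs had means below 100 units, led by KEF22_t06 (73.2) and KEF22_t09 (56.0). These genes are 59 to 75 bases long, so a value per length rests on few bases. Whether reads over a tRNA gene came from the tRNA itself or from longer RNA of its neighbours was not tested. For KEF22_t12 the nearest mRNA gene is COX1, so its values and those of COX1 may not be separate.

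Some low tRNAs had their lowest values in the same samples. For KEF22_t13, KEF22_t15, KEF22_t16, KEF22_t18 and KEF22_t19 the 5 lowest values fell in the same samples, MG sample 6, EL sample 3, PL sample 2, W2 sample 3 and W2 sample 6. These 5 genes were picked for this match after the values were seen, and the other 29 members did not show it. For KEF22_t13 the margin was narrow, with 20.6 units as the fifth lowest value and 21.8 as the sixth. KEF22_t19, for example, was at 45.2, 64.8 and 10.8 units at MG, 44.2, 59.0 and 46.3 at LG, 11.2, 56.6 and 59.5 at EL, 6.20, 53.1 and 55.6 at PL and 53.3, 17.2 and 22.2 at W2. Every stage but LG had at least 1 of these samples, and W2 had 2. None of the 5 genes was called in a comparison of stages on the scales described below.

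**Figure D3:**
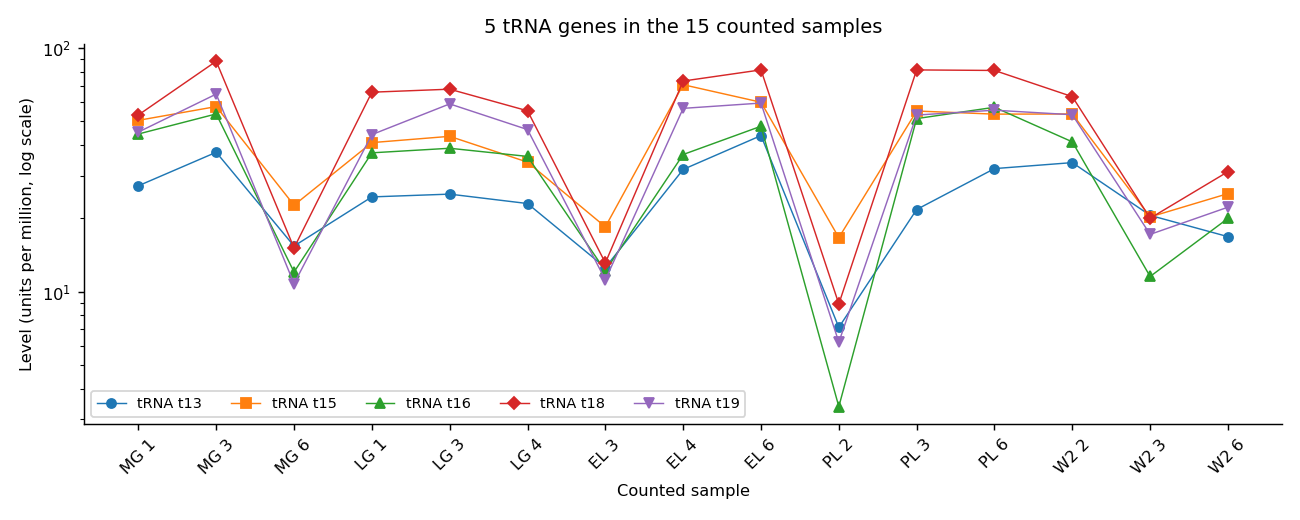
Lines join the levels of 5 tRNA genes, in units on a log axis, over the 15 counted samples ordered by stage, and stand for no course in time. The 5 genes were picked because their 5 lowest values fall in MG 6, EL 3, PL 2, W2 3 and W2 6, and the lowest values are those of PL 2.

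The stages were compared with limma, a linear model with moderated variances fitted to log2(units + 0.5) of all 61773 transcripts, with Benjamini-Hochberg adjustment over all of them and a call at an adjusted p below 0.05. These p-values rest on the spread between counted samples within a stage, pooled over all 5 stages (n = 3 each) and moderated towards a trend over all transcripts. A comparison of 2 stages therefore also depends on the samples of the others. As deposited, the mitochondrial transcripts differed little between stages. The test over all 5 stages called 0 of the 34 members, against 2.6% of all transcripts. In that test 6 members had an unadjusted p below 0.05, as had 9696 of the 61773 transcripts. In 9 of the 10 comparisons between stages 0 members were called. At an unadjusted p below 0.05 there were 8 in PL vs MG, 8 in PL vs LG, 3 in PL vs EL, 4 in W2 vs EL and 0 in the other 5. The background of all transcripts called, at the adjusted threshold, was 4.28% in PL vs MG, 2.26% in PL vs LG, 0.698% in PL vs EL, 0.0664% in W2 vs EL, 0.0162% in LG vs MG, 0.0405% in EL vs MG, 0.0275% in W2 vs MG, 0.0178% in EL vs LG and 0.0324% in W2 vs LG.

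After weaning, 3 mRNAs were called as higher than at PL, and no member was called as lower. The background in W2 vs PL was 7.13% of all transcripts, 6.38% of them higher at W2, and no mitochondrial transcript reached the study's additional threshold of an absolute log2 fold change of 2, which 2.84% of all transcripts passed. CYTB was at 4738, 5449 and 6025 units at PL and at 6854, 7077 and 7227 at W2. The stages did not overlap, and the log2 fold change was 0.39 (SE 0.09, adjusted p = 0.0241). Such a rise without overlap was seen in 7 of the 34 members and in 21.5% of all transcripts, so it does not set the members apart. COX3 was at 8408, 11542 and 11186 units at PL and at 13561, 13955 and 12972 at W2, again without overlap, with a log2 fold change of 0.39 (SE 0.10, adjusted p = 0.0386). ND1 was at 2531, 3105 and 3207 units at PL and at 3585, 3978 and 4205 at W2, which did not overlap either, with a log2 fold change of 0.42 (SE 0.12, adjusted p = 0.0478).

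The 3 calls rested on narrow margins and on the scale. When each of the 15 samples was left out in turn, CYTB kept its call in 10 of 15 fits, COX3 in 3 and ND1 in 1. CYTB lost it without MG 6, PL 3 or any 1 W2 sample, COX3 kept it without PL 2, PL 3 or PL 6, and ND1 without PL 6. In all, 0 members were called without MG 6, W2 2 or W2 3, 1 without any other MG, LG or EL sample (CYTB) or without W2 6 (KEF22_t14, lower), 2 without PL 3 (COX3 and KEF22_t03), 3 without PL 2 (CYTB, COX3 and, lower, KEF22_t12) and 6 without PL 6. Of all transcripts, the median log2 fold change in W2 vs PL was 0.49, larger than that of the 3 calls, and for the 13 mRNAs it was 0.39. After median-ratio scaling the median over all transcripts was 0.07, and all 3 genes turned the other way, with -0.34 for CYTB, -0.34 for COX3 and -0.32 for ND1.

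On the median-ratio scale the mitochondrial transcripts stood higher at PL than at the other stages. The test over all stages called 6 members (background 1.53%), namely COX1, COX2, ATP8, ND5, KEF22_t12 and KEF22_t14, and 3 without MG 3, MG 6 or PL 6. In PL vs MG 10 members were higher and 0 lower (background 2.32%, with 1.1% higher), 8 of them mRNAs. In W2 vs PL 0 were higher and 11 lower (background 2.91%, with 1.32% lower), and both comparisons share the PL samples. With transcripts summed per gene, 5.11% of all genes were higher in PL vs MG and 5.56% lower in W2 vs PL on this scale. The spread over samples also differed, with a median log2 SD of 0.26 for the 13 mRNAs against 0.84 over all transcripts. The share of all transcripts called is therefore not a like-for-like background for the members. The mRNAs called were COX1, COX2, ATP8, ND1, ND2, ND4L, ND5 and CYTB, and the tRNAs KEF22_t12 and KEF22_t14, to which W2 vs PL added KEF22_t20. In PL vs LG 4 members were higher (background 1.74%) and in PL vs EL 2 (background 0.864%). In the other 6 comparisons limma called 0 members, with backgrounds of 0.013% in LG vs MG, 0.0291% in EL vs MG, 0.0275% in W2 vs MG, 0.0178% in EL vs LG, 0.0275% in W2 vs LG and 0.0583% in W2 vs EL. At an unadjusted p below 0.05 these held 8, 10, 0, 1, 6 and 11 members in the same order. Of all 61773 transcripts they held 2498, 3507, 2434, 2991, 2871 and 4502 at that p.

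By complex, the complex IV gene COX1 led the mRNAs on this scale. Scaled COX1 was at 11649, 10712 and 11801 units at MG, 15376, 14990 and 13134 at LG, 12714, 15774 and 14472 at EL, 23670, 18954 and 19483 at PL and 13359, 10628 and 11588 at W2. Every PL sample lay above all others, and the log2 fold change was 0.86 (SE 0.11, adjusted p = 0.00171) in PL vs MG and -0.80 (SE 0.11, adjusted p = 0.00229) in W2 vs PL. COX2 changed by 0.56 and -0.58, and COX3, at 0.33 and -0.34, passed the test in neither. In complex V, ATP8 changed by 0.62 and -0.61, while ATP6 passed in neither (0.54 and -0.53, with SEs of 0.23).

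Of the complex I and complex III genes, ND5, ND4L, ND1, ND2 and CYTB were called on the median-ratio scale. ND5 was at 2479, 2504 and 2557 scaled units at MG, 4606, 3729 and 3719 at PL and 2593, 2691 and 2454 at W2, with log2 fold changes of 0.67 (SE 0.09, adjusted p = 0.00218) in PL vs MG and -0.63 (SE 0.09, adjusted p = 0.00257) in W2 vs PL. PL overlapped neither MG nor W2 for this gene. Without overlap, 17 of the 34 members and 6.88% of all transcripts were higher in PL vs MG on this scale. In W2 vs PL, 16 members and 6.85% of all transcripts were lower without overlap. ND1, ND2 and ND4L changed by 0.29 to 0.39 in PL vs MG and by -0.30 to -0.32 in W2 vs PL, and CYTB by 0.45 and -0.34. ND3 (0.18 and -0.27), ND6 (0.44 and -0.38) and ND4 (0.64 and 1.85, SE 2.11) were called in neither. ND5, ATP8, COX1, KEF22_t12 and KEF22_t14 kept their calls in both comparisons whichever of the 15 samples was left out. Of these 15 fits, CYTB kept its call in 14, COX2 in 13, ND4L in 11, ND1 in 2 and ND2 in 1 in PL vs MG. In W2 vs PL, COX2 kept it in 14, ND1 and KEF22_t20 in 3, CYTB and ND2 in 2 and ND4L in 1. The whole count in PL vs MG went from 10 to 5 without MG 3 and to 6 without MG 6. That in W2 vs PL went from 11 to 6 without MG 1, MG 3, MG 6, LG 3, LG 4, EL 6 or W2 6, and to 7 without LG 1, EL 3, PL 6, W2 2 or W2 3. In PL vs LG it went from 4 to 0 without any 1 LG sample, to 1 without MG 3 and to 2 without MG 1, MG 6, EL 6, PL 2 or PL 6, and in PL vs EL from 2 to 0 without EL 3 and to 1 without any other sample but W2 3 and W2 6.

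**Figure D4:**
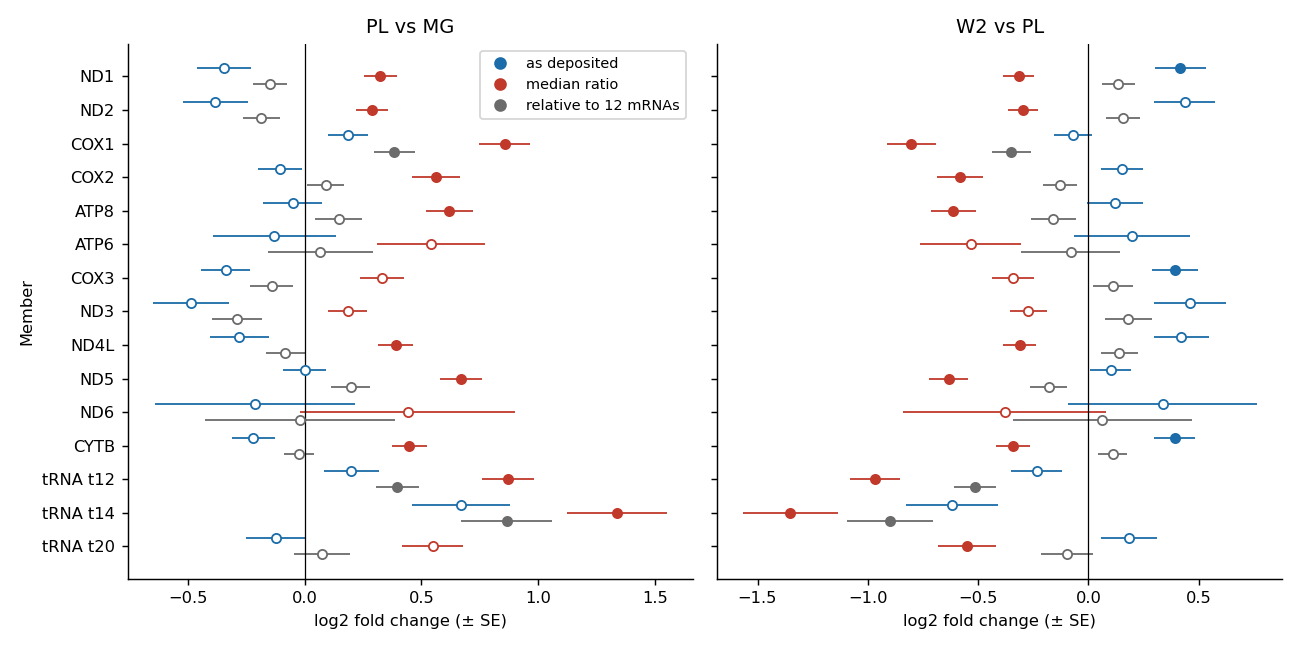
Log2 fold changes (points, with SE bars) of 12 mRNAs and 3 tRNAs in PL vs MG (left) and W2 vs PL (right) as deposited (blue), after median-ratio scaling (red) and relative to the mean of 12 mitochondrial mRNAs (grey). Filled points have an adjusted p below 0.05 in limma, and CYTB, COX3 and ND1 lie on opposite sides of 0 in W2 vs PL as deposited and after median-ratio scaling. ND4 is left out for its SE of above 2.

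Whether the members changed relative to each other was asked with levels divided by the geometric mean of the mitochondrial mRNAs. With all 13 mRNAs in that mean limma called 0 members over the 5 stages (background 0.8%) and 0 in each of the 10 comparisons. At that adjusted threshold the background was 0.277% in PL vs EL, 1.42% in W2 vs PL, 1.77% in PL vs MG, 0.0291% in EL vs MG, 0.0453% in W2 vs EL, 0.0146% in LG vs MG, 0.0243% in W2 vs MG, 0.0178% in EL vs LG, 0.824% in PL vs LG and 0.021% in W2 vs LG. With the p unadjusted and below 0.05 there were 0 members over the stages, 3 each in PL vs EL and W2 vs PL, 1 each in PL vs MG, EL vs MG and W2 vs EL, and 0 in the other 5. The jumps of ND4 in EL sample 4 and W2 sample 3 shift this mean, so a mean of the other 12 mRNAs, COX1 among them, was added after the values had been seen. Relative to these 12, KEF22_t12 was called over the 5 stages (background 2%, adjusted p = 0.0453), a call that was kept without W2 2 and lost without any other sample. In PL vs MG 3 members were higher and 0 lower (background 3.57%), and in W2 vs PL 3 were lower and 0 higher (background 4.54%). In each comparison these were COX1, KEF22_t12 and KEF22_t14, and in PL vs EL 1 member, KEF22_t12, was higher (background 0.745%).

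COX1 took a larger part of the mitochondrial mRNA at PL. Its share of the units of the 13 mRNAs was 16.0% ± 0.588 (SD, n = 3) at MG, 17.1% ± 0.783 at LG, 16.5% ± 0.564 at EL, 20.0% ± 0.991 at PL and 16.4% ± 1.44 at W2. The PL samples, at 21.0%, 20.0% and 19.0%, lay above all 12 others, whose highest value was 17.8% in LG sample 1. Relative to the 12 mRNAs, COX1 differed by 0.38 on the log2 scale (SE 0.09, adjusted p = 0.0309) in PL vs MG and by -0.35 (SE 0.09, adjusted p = 0.0408) in W2 vs PL. The latter call was lost whichever sample was left out, and the former without any MG or PL sample, LG 4, EL 6, W2 3 or W2 6.

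COX3 had the opposite order, with 13.5% ± 0.794 of the mRNA units at PL against stage means of 15.2% to 15.6% elsewhere, but its level relative to the 12 mRNAs did not pass the test in PL vs MG (-0.14, SE 0.09) or W2 vs PL (0.11, SE 0.09). The complex I mRNAs in sum, with ND4 at its deposited values, held 24.3% ± 0.716 of the mRNA units at MG, 21.5% ± 0.502 at PL and 24.2% ± 1.03 at W2. No complex I member was called relative to the 12 mRNAs, and ND3 had the largest negative difference among the mRNAs in PL vs MG (-0.29, SE 0.11, adjusted p = 0.175).

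KEF22_t12, the tRNA gene next to COX1, was as deposited at 8558, 8060 and 8145 units at MG, 9196, 8922 and 8654 at LG, 7652, 7166 and 7972 at EL, 7895, 9979 and 10824 at PL and 9020, 7102 and 8185 at W2. The stages overlapped on that scale, and the log2 fold change in PL vs MG was 0.20 (adjusted p = 0.397). Relative to the 12 mRNAs the PL samples lay above all others, with log2 levels of 1.40, 1.48 and 1.47 against at most 1.23 in LG sample 1. The difference was 0.40 (SE 0.09, adjusted p = 0.0348) in PL vs MG, 0.47 (adjusted p = 0.0393) in PL vs EL and -0.51 (SE 0.09, adjusted p = 0.00872) in W2 vs PL. On the median-ratio scale it was 0.87 in PL vs MG and -0.97 in W2 vs PL, where its adjusted p of 0.000781 was the lowest among the members. Relative to the 12 mRNAs, its W2 vs PL call was lost without W2 3, and its PL vs MG call was kept without LG 1, W2 2 or W2 3 and lost without any other sample. Its PL vs EL call was kept without PL 2 or W2 2 alone.

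KEF22_t14, between COX2 and ATP8, was as deposited at 396, 378 and 365 units at MG, 413, 458 and 394 at LG, 413, 330 and 424 at EL, 574, 577 and 663 at PL and 420, 267 and 539 at W2. All 3 PL samples lay above the other 12 even without any scaling, but the log2 fold change of 0.67 in PL vs MG (SE 0.21) had an adjusted p of 0.0958. Relative to the 12 mRNAs it was 0.86 (SE 0.19, adjusted p = 0.0286), and -0.90 (SE 0.19, adjusted p = 0.0206) in W2 vs PL. The direction in PL vs MG was the same for COX1, KEF22_t12 and KEF22_t14 as deposited, after median-ratio scaling and relative to the 12 mRNAs, and in W2 vs PL all 3 had negative differences on each of these scales. None of the 3 was called in either comparison as deposited. Deposited COX1 was at 13420, 15934 and 16364 units at PL and at 15449, 13222 and 14822 at W2, which overlapped. The W2 vs PL call of KEF22_t14 was lost without PL 2 (-0.83), and its PL vs MG call without any 1 MG sample, PL 2 or PL 6.

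**Figure D5:**
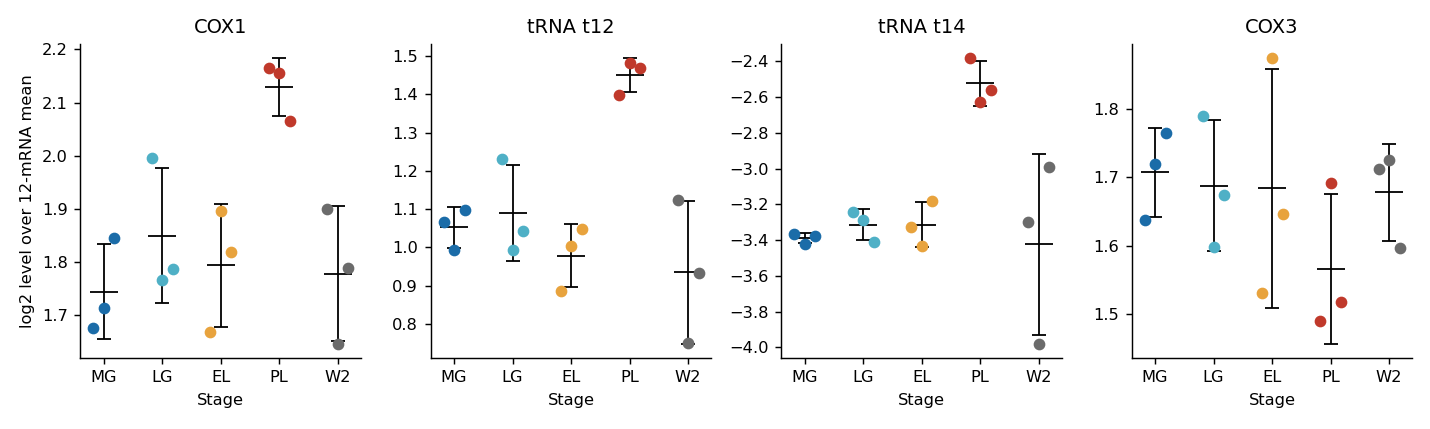
Points are log2 levels over the geometric mean of 12 mitochondrial mRNAs in the 15 counted samples, with the mean and SD of each stage (n = 3), for COX1, the tRNA genes KEF22_t12 and KEF22_t14, and COX3. The axes differ between panels and do not start at 0. In the first 3 panels every PL sample lies above all 12 others, whereas for COX3 the stages overlap.

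The nuclear genes that work with the mitochondrial genome were lower at PL on the deposited scale, where the median gene in the table was lower too. With transcripts summed per gene, 56 of the 64 nuclear chain genes were lower and 0 higher in PL vs MG (background of genes lower 23%, of genes higher 2.23%), and 57 were higher and 0 lower in W2 vs PL (background 30.4% and 2.48%). Their median log2 fold change was -0.78 against -0.57 over all genes in PL vs MG and 0.87 against 0.68 in W2 vs PL. The 13 mitochondrial mRNAs had medians of -0.21 and 0.39 in these comparisons, beside -0.39 and 0.49 over all transcripts. After median-ratio scaling, 2 of the 64 were higher and 10 lower in PL vs MG (background 5.11% and 5.86%), with a median of -0.12 against -0.04 over all genes, whereas the median of the 13 mitochondrial mRNAs was 0.45 against -0.02 over all transcripts.

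By complex, as deposited, 34 of 37 complex I genes, 3 of 4 of complex II, 2 of 2 found of complex III, 6 of 6 found of complex IV and 11 of 15 of complex V were lower in PL vs MG, with 0 higher. Of all genes, 23% were lower and 2.23% higher. After median-ratio scaling the counts in the same order were 6 of 37, 1 of 4, 0 of 2, 1 of 6 and 2 of 15 lower, with 1 of complex II and 1 of complex V higher. Of all genes, 5.86% were lower and 5.11% higher on that scale. The genes named here had the highest means or the smallest p over the stages, and their changes in PL vs MG are given as deposited. In complex I, NDUFS5, NDUFB9 and NDUFS4 fell by 1.26, 0.97 and 1.00 on the log2 scale (SE 0.14, 0.14 and 0.11). In complex II, SDHB and SDHA fell by 1.00 and 0.73 while SDHD, at -0.36, did not pass the test (adjusted p = 0.129). In complex III, UQCRB and UQCR10 fell by 0.72 and 0.57. COX6C, COX7C and COX5B of complex IV, the complex to which COX1 belongs, fell by 1.03, 1.13 and 0.73. In complex V, ATP5B, ATP5E, ATP5A1 and ATP5G2 fell by 1.00, 0.99, 0.91 and 1.34. After median-ratio scaling NDUFS5, SDHB, COX6C, ATP5E and ATP5G2 were still called as lower in PL vs MG, SDHD turned to a called rise of 0.30, and the other 9 were not called.

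Of the genes for transcription and upkeep of mitochondrial DNA, 7 of 16 were lower and 0 higher in PL vs MG as deposited (23% of all genes lower), and 9 were higher and 0 lower in W2 vs PL (30.4% higher). After median-ratio scaling 1 was lower and 0 higher in PL vs MG (5.86% of all genes lower, 5.11% higher), and 1 was higher and 0 lower in W2 vs PL (7.67% higher, 5.56% lower). TFAM, which packages mitochondrial DNA and starts its transcription, was at 23.9 ± 2.74 units (SD, n = 3) at MG, 14.8 ± 2.51 at PL and 28.5 ± 5.01 at W2, a log2 fold change of -0.68 in PL vs MG (adjusted p = 0.0189). POLRMT, the mitochondrial RNA polymerase, changed by -0.70 (adjusted p = 0.0471), the transcription factor TFB2M by -1.14 and the DNA exonuclease MGME1 by -1.82. After median-ratio scaling TFAM changed by -0.03, POLRMT by -0.06 and TFB2M by -0.51, none of them called, and MGME1 by -1.19 (adjusted p = 0.000129).

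Of the genes for processing and turnover of mitochondrial RNA, 10 of 18 were lower and 0 higher in PL vs MG as deposited (23% of all genes lower), and 2 were lower and 0 higher after median-ratio scaling (5.86%). REXO2, an exonuclease that degrades short RNAs, HSD17B10, a subunit of the enzyme that cuts at the 5′ end of tRNAs, GRSF1, an RNA granule protein, and SLIRP, which stabilises mitochondrial mRNAs, fell by 0.58, 0.83, 1.07 and 1.15. Of the 4 named, SLIRP was called as lower after median-ratio scaling (-0.48) and the others were not called. Of 9 regulators of mitochondrial biogenesis found, 4 were lower and 0 higher in PL vs MG as deposited (23% of all genes lower). After median-ratio scaling 0 were lower and 1 higher (5.11% of all genes higher). The transcription factors NRF1, GABPA and YY1 fell by 1.65, 0.97 and 0.85, while the nuclear receptor ESRRA, at 0.20, was not called. After median-ratio scaling ESRRA was called as higher in PL vs MG (0.86) and the other 3 were not called.

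Markers of other cell types also differed between stages as deposited, a scale on which the median gene was lower at PL too. Their sums are given without scaling. The 4 adipocyte markers found of 6 summed to 254 to 391 units in the PL samples and to 446 to 734 at the other stages, and the 5 leukocyte markers found of 6 to 9.53 to 19.2 units at PL and 27.5 to 51.7 at MG, 22.2 to 29.8 at LG, 8.94 to 22.2 at EL and 27.4 to 40.1 at W2. The leukocyte sums at PL overlapped those at EL. None of the found markers of these lists was at 0 in all samples of a stage. The part of these cells, and of the milk protein transcripts in PL sample 2, in the differences at PL was not tested. Without PL sample 2 the ratio of mitochondrial to nuclear chain mRNA at PL was 14.3 and the COX1 share 19.5%.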

How the data were processed

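RNA of 30 mammary samples had been sequenced from TruSeq v2 libraries. The authors trimmed reads with Trimmomatic, aligned them to Sscrofa11.1 with HISAT2, assembled transcripts with StringTie and kept those with at least 0.5 FPKM in a stage. Whether their RUVs correction is in the values is not given in the sources used here. The deposited table is named for FPKM, yet its sample totals (997480 to 998888) are those of TPM, and the deposited values were handled as TPM. They hold no read counts, so the depth behind single values is unknown and no counting interval is given.

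Positions, symbols and classes came from the RefSeq table of Sscrofa11.1. Tests used limma 3.58.1 in R 4.3.3 with a variance trend, the 5 stages in 1 fit without covariates, and log2(value + 0.5). Fold changes are on that scale and are understated for low members. Median-ratio scaling used transcripts of at least 10 units in all counted samples. Gene sums added the transcripts of a gene, or of an assembled locus. The procedure was tested on simulated data with 200 planted log2 changes of 2. In PL vs MG it recovered 111 of them (55.5%), with 12 false calls. Smaller changes were not planted, so a member that was not called may still have changed. Named were all mRNAs and rRNAs, the 6 highest tRNAs, any tRNA called, and from each nuclear list the 2 genes with the highest mean and the 2 with the smallest p over the stages; KEF22_t03, KEF22_t13, KEF22_t15, KEF22_t16, KEF22_t18 and KEF22_t19 were chosen after their values were seen. The members and gene lists were chosen with earlier results of these data known. Alternatives were pseudocounts of 1 and 0.1, a mean of at least 1 unit, quantile normalization, a replicate block, all 6 samples, the near-identical mean as a further sample, the compared stages alone, gene sums and each sample left out. Sequences were not used here.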

Additional observations from a re-analysis of the deposited data

How the results depend on the processing

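As deposited, the members called in at least 1 of the 10 comparisons numbered 3, and 1 with a pseudocount of 0.1, 0 with the replicate block, 0 with the compared stages alone, 6 with gene sums, 11 after median-ratio scaling, 10 after quantile normalization, 19 with all 6 samples per stage and 12 with the near-identical mean as 1 further sample. For W2 vs PL the same settings gave 1, 0, 0, 6, 11, 9, 15 and 9. The test over the 5 stages called 6 members after median-ratio scaling, 6 after quantile normalization, 18 with all 6 samples and 10 with the further sample. In PL vs MG, PL vs LG and PL vs EL these 4 settings gave 10, 7, 9 and 8, then 4, 5, 9 and 8, then 2, 1, 14 and 3, and gene sums gave 1 in each of the first 2. All 6 samples gave 2 in LG vs MG, 4 in EL vs MG, 3 in W2 vs MG, 8 in EL vs LG, 4 in W2 vs LG and 9 in W2 vs EL, where the further sample gave 3. The near-identical samples copy the mean of the others, so counting them lowers the spread without new animals. With gene sums, 30.4% of all genes were higher and 2.48% lower in W2 vs PL, and 2.23% higher and 23% lower in PL vs MG. For the other alternative settings and the fits with a sample left out, the share of all transcripts called is not given. Their counts therefore do not set the members apart from other transcripts.

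Leaving out 1 sample at a time gave 0 to 6 members in any comparison and in W2 vs PL, 0 to 1 in PL vs MG (1 without PL 6 or W2 3), PL vs LG (1 without PL 6) and PL vs EL (1 without PL 2), and 0 over the stages and in the other 6 comparisons. After median-ratio scaling it gave 6 to 10 members (11 with all samples), among them COX3 without EL 4, KEF22_t10 without W2 2 or W2 3 and KEF22_t06 without W2 6, which were not called with all samples, relative to 13 mRNAs 0, and relative to 12 mRNAs 1 to 3. The mitochondrial share stayed at 9.34% to 9.54% in MG, 10.0% to 10.1% in LG, 9.07% to 9.24% in EL, 8.37% to 9.71% in PL and 9.93% to 9.98% in W2, the ratio to nuclear chain genes at 8.44 to 8.60, 9.86 to 10.6, 9.77 to 10.5, 13.2 to 14.3 and 8.85 to 9.33, and the COX1 share at 15.7% to 16.3%, 16.7% to 17.5%, 16.3% to 16.8%, 19.5% to 20.5% and 15.8% to 17.2%.

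With the replicate block the median-ratio count was 6 and that relative to 12 mRNAs 1. All 6 samples gave 27 and 20, and the further sample 18 and 8. Relative to 13 mRNAs all 6 samples gave 27, the further sample 3 and the reference without ND4 3. Samples with the same number correlated at -0.055 to 0.075 in their deviations from the stage means over 19 pairs, so the numbers were not taken to pair them. In W2 vs PL, CYTB, COX3 and ND1 turned to -0.34, -0.34 and -0.32 after median-ratio scaling. The cause of these changes was not tested.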
